A study of Mus musculus with 12 samples.

Results

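The Src family kinases are represented here by 7 genes, taken by symbol from the 24421 genes of the deposited count files. Src, Yes1, Fyn and Frk were grouped as the 4 widely expressed members, and Lyn, Fgr and Lck as the 3 members best known from blood cells. RNA-seq of poly(A) RNA had been carried out on 6 spontaneous liver tumors and on non-tumoral liver of the same animals, all on a standard diet. In p21+/Tert mice (tumors T-HCC662 and T-HCC663, T-HCC941, and also T-HCA992) Tert, the catalytic subunit of telomerase, is expressed under the promoter of Cdkn1a (p21), and in p21+/TertCi mice (tumors TCi-HCC981 and TCi-HCA984) the expressed Tert is catalytically inactive. These groups are labelled p21Tert and p21TertCi in the deposit, and every library used here carries one of these alleles, so no library without one enters the comparisons. The Cdkn1a promoter is not restricted to hepatocytes. Age is not in the labels, and the study describes its tumor-bearing mice as aged. Each tumor keeps the name the study gave it, and its liver and mouse are named after it. HCC and HCA in these names stand for hepatocellular carcinoma and hepatocellular adenoma, although the histology of the study lists T-HCC663 as an adenoma. The p21Tert liver titled p_961 was taken as that of T-HCC662, by elimination and because its file header bears the number of that mouse. Each gene was described in each tumor against the liver of its own mouse. The main test compared tumors with livers without a mouse term, and a fit with the mouse as a block was an alternative.

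Src family kinases are non-receptor tyrosine kinases that sit at the inner face of the cell membrane and relay signals from integrins, growth factor receptors and immune receptors. Csk phosphorylates a tyrosine in their tail and so holds them inactive, and phosphatases reverse this. Src, Yes1 and Fyn act in most tissues, Frk is a more distant relative found mainly in epithelial cells, Lck serves T cell receptor signaling, and Lyn and Fgr act in myeloid cells, Lyn also in B cells. Counts give RNA levels only and say nothing of the phosphorylation of these proteins.

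All 7 members passed the filter on low counts. Between 14571716 and 26170661 reads were assigned to genes per library, and the hepatocyte markers Alb, Apoa1, Ttr, Hnf4a, Cps1, Fah, Tat and Apob were above 0 in all 12 libraries. The TCi-HCC981 liver stood apart in its blood-cell transcripts: its 10 macrophage markers summed to 1310 counts per 1000000 assigned reads (CPM), against 137 to 333 CPM in the other 5 livers. In the TCi-HCC981 tumor they summed to 832 CPM. The tests over all tumors are therefore also given without the TCi-HCC981 mouse. In bulk tissue, fewer cells of a type and less RNA per cell cannot be told apart.

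Src and Frk were higher in the tumors, and they are the members whose promoters are shown first. The sequences run 5′ to 3′ from 250 bases before to 50 bases after the start that RefSeq gives on GRCm38.p6. The windows of Frk and Yes1 sit at the beginning of the gene spans given below. That of Src lies wholly inside its gene span, which begins at chr2:157418444, so it marks a start downstream of the first base. The Fyn window also lies inside its gene span. The 6 motifs searched, on both strands, were the GC box with the letters GGGCGG, the box named for its letters CCAAT, the TATA box as TATAAA, the AP-1 site as TGACTCA, the core of Ets sites as CCGGAA and the core of TCF sites as CTTTGA. Matches are in capitals, and none overlap in the windows printed. Yes1, which did not pass the test in any comparison, is printed last for contrast.
Src, chr2:157424043-157424342, plus strand: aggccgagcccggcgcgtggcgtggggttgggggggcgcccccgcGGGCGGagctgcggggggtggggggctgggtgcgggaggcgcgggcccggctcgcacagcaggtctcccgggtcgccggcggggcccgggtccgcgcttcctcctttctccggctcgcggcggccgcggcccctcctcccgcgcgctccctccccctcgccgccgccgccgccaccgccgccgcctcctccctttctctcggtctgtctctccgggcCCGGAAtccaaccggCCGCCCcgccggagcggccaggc
Frk, chr10:34483150-34483449, plus strand: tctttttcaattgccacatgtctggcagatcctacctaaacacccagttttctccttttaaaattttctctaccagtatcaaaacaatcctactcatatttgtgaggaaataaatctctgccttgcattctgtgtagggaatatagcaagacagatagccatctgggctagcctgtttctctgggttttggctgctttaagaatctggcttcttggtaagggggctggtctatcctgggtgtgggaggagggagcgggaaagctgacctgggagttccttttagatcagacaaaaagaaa
Yes1, chr5:32610921-32611220, plus strand: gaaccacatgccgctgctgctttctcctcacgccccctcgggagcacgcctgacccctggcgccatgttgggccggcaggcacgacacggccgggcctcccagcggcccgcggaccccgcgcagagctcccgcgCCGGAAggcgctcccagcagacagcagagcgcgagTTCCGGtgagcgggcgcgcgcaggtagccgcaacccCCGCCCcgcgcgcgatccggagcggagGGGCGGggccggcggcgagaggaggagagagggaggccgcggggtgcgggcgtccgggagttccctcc

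The promoters of the 2 members that rose were unlike each other. The Src window held 82.3% G and C, with 47 CG dinucleotides, and the Frk window 43.7%, with 1 CG dinucleotide. Over the 32851 promoters of the same length the medians were 52.7% and 7 CG dinucleotides. Src had 2 GC boxes, which 35.7% of all promoters hold at least once, and 1 Ets core, held by 14.9%. Yes1, at 77.0% G and C, had 2 of each. Frk had no match to any of the 6 motifs, of which the CCAAT box is found in 37.4% of promoters, the TCF core in 16.0%, the TATA box in 13.6% and the AP-1 site in 5.2%. The Fyn promoter held 1 GC box, 1 CCAAT box and 1 TCF core. The table held 7 promoters of 6 members, among them 2 of Lck.

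Of the widely expressed members, Src and Frk were higher in all 6 tumors and lay above every liver, while Yes1 stayed close to its liver level and Fyn was mixed. Across the 6 tumors and 6 livers, 2 of 7 members passed the test (edgeR's quasi-likelihood test, adjusted p under 0.05 after Benjamini-Hochberg adjustment over 13822 genes). Both were higher in tumors, a direction in which 6.77% of all genes tested passed. This fit had no mouse term. With the mouse as a block, Src, Frk and Fgr passed by the same test (adjusted p = 0.00686, 0.00472 and 0.0432). In that fit 8.64% of genes passed as higher in tumors. Src and Frk were also the 2 members for which every tumor exceeded every liver in CPM, which held for 2.93% of genes tested in the tumor-higher direction.

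Src, the founding member, lies at chr2:157418444-157471862 (mm10, plus strand). In the livers of T-HCC662, T-HCC663 and T-HCC941, then of T-HCA992, and last of TCi-HCC981 and TCi-HCA984, it measured 1.13, 1.68, 1.06, 4.03, 4.16 and 1.36 CPM. In the tumors of the same mice it measured 4.73, 22.2, 32.7, 25.4, 11.8 and 9.71 CPM. The lowest tumor, that of the T-HCC662 mouse, thus lay just above the highest liver, that of the TCi-HCC981 mouse. The mean rose from 2.23 ± 1.46 CPM in livers to 17.8 ± 10.7 CPM in tumors (SD, n = 6 each), and the fitted log2 fold change was 2.97 (SE 0.52, adjusted p = 0.00421). Reads behind these values were few in liver, 14 to 99 per library, and 105 to 710 in tumor. Tumor by tumor, Src was 30.8-fold its own liver in the T-HCC941 mouse and 13.2-fold in the T-HCC663 mouse. It was 7.16-fold in the TCi-HCA984 mouse, 6.32-fold in the T-HCA992 mouse, 4.19-fold in the T-HCC662 mouse and 2.83-fold in the TCi-HCC981 mouse. Even in TCi-HCC981 the difference, 1.31 on the log2(CPM + 1) scale, exceeded that of 93.7% of the genes tested in that mouse.

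**Figure D1:**
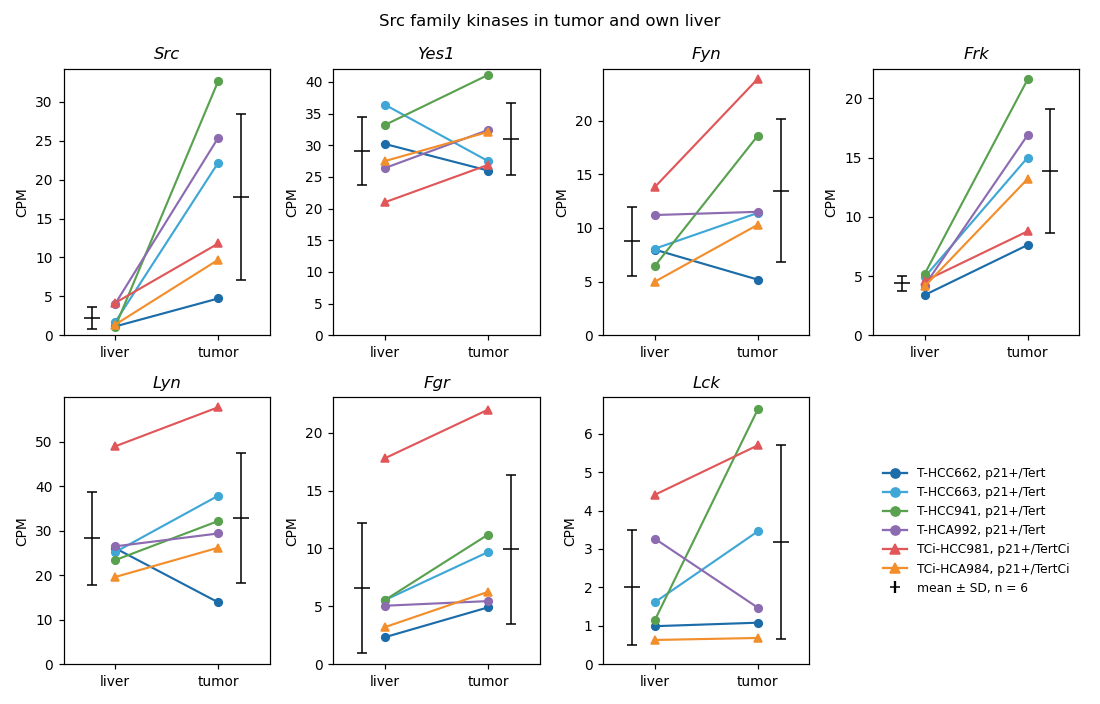
CPM (linear axes from 0) of the 7 Src family kinases in the liver and tumor of each of 6 mice, joined by a line per mouse, circles for p21+/Tert and triangles for p21+/TertCi. Black marks give the mean ± SD of the 6 livers and of the 6 tumors. Src and Frk rose along all 6 lines with no overlap between tissues, whereas Yes1 was lower in 2 tumors and higher in 4.

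Frk, at chr10:34483399-34611278 (plus strand), varied little among livers, at 3.39, 4.90, 5.16, 4.19, 4.58 and 4.12 CPM in the same order of mice. Its tumor values were 7.62, 15.0, 21.6, 16.9, 8.78 and 13.2 CPM. The tumors of the T-HCC662 and TCi-HCC981 mice were the lowest for Frk, as the T-HCC662 mouse was for Src, yet both remained above every liver. The mean was 4.39 ± 0.632 CPM in livers and 13.9 ± 5.21 CPM in tumors (SD, n = 6 each), and the fitted change 1.65 on the log2 scale (SE 0.26, adjusted p = 0.0023). Ratios to the own liver ran from 1.92 in the TCi-HCC981 mouse to 4.19 in the T-HCC941 mouse. The T-HCC941 mouse therefore showed the highest ratio for both Src and Frk, and the TCi-HCC981 mouse the lowest for both. Over the 12 libraries the log2 CPM of Src and Frk had a Pearson r of 0.922, a description over libraries that share the tissue difference.

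Yes1, a close relative of Src with overlapping roles, lies at chr5:32611171-32687057 (plus strand). It measured 30.2, 36.4, 33.2, 26.4, 21 and 27.5 CPM in livers and 26.0, 27.5, 41.1, 32.4, 26.9 and 32.1 CPM in tumors. The tissues overlapped, and the tumor was higher in 4 of 6 mice. The log2 fold change was 0.08 (SE 0.16, adjusted p = 0.79). Where T-HCC941 exceeded its liver, by 0.30 on the log2(CPM + 1) scale, the tested genes of chromosome 5 had a median difference of 0.20 in that mouse. In T-HCA992, TCi-HCC981 and TCi-HCA984 Yes1 differed by 0.29, 0.34 and 0.22, against chromosome 5 medians of 0.03, −0.16 and −0.03.

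Fyn, which also signals in T cells and neurons, lies at chr10:39368855-39565381 (plus strand). Liver values were 7.98, 8.06, 6.45, 11.2, 13.8 and 4.99 CPM, and tumor values 5.18, 11.4, 18.6, 11.5, 23.9 and 10.3 CPM. It was higher in 5 of 6 tumors, lower in T-HCC662, and nearly level in the T-HCA992 mouse. The log2 fold change, 0.62 (SE 0.34), did not pass the test (adjusted p = 0.276). Across libraries Fyn ran closer to the blood-cell members than to the other widely expressed ones. Its Pearson r over the 12 libraries was 0.875 with Lyn, 0.838 with Lck and 0.796 with Fgr, against 0.683 with Src, 0.489 with Frk and 0.042 with Yes1.

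**Figure D2:**
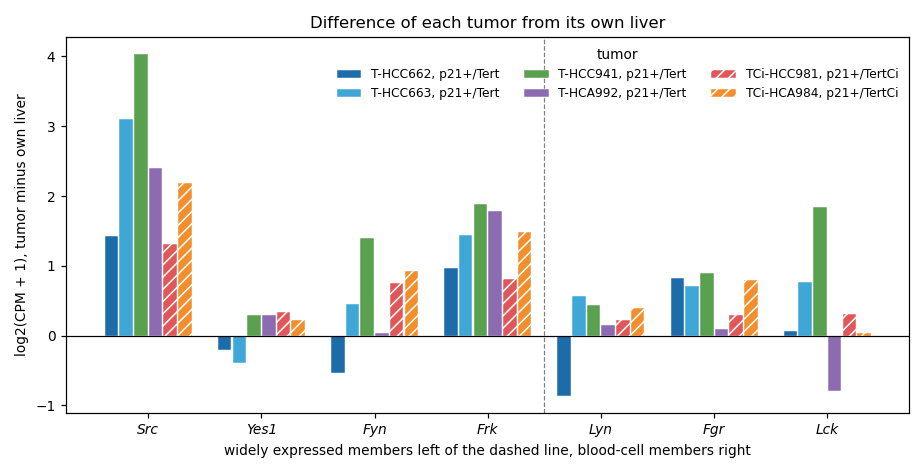
Difference of each tumor from the liver of its own mouse in log2(CPM + 1), as bars for each of the 7 members, colored by mouse, with hatched bars for p21+/TertCi. All 6 bars are above 0 for Src, Frk and Fgr, with ranges of 1.31 to 4.03, 0.81 to 1.88 and 0.09 to 0.90, and the other members have at least 1 bar below 0.

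None of the 3 blood-cell members passed the test without a mouse term over all tumors, and the ranges of livers and tumors overlapped for each. Lyn, at chr4:3678115-3813122 (plus strand), measured 26.1, 25.2, 23.4, 26.5, 49.0 and 19.6 CPM in livers and 13.9, 37.9, 32.2, 29.4, 57.8 and 26.2 CPM in tumors. Both tissues of the TCi-HCC981 mouse were the highest of their kind, and T-HCC662, at 13.9 CPM, was below its liver and below every other library. The log2 fold change of Lyn was 0.21 (SE 0.30, adjusted p = 0.708). In T-HCC662 Lyn differed from its liver by −0.86 on the log2(CPM + 1) scale, beside a median of −0.28 over the tested genes of chromosome 4. Fgr and Lck, on the same chromosome, differed by 0.83 and 0.07 in that mouse.

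Fgr, at chr4:132974095-133001910 (plus strand), was higher than the own liver in all 6 mice, as 11.0% of the genes tested were. It measured 2.33, 5.54, 5.54, 5.05, 17.8 and 3.20 CPM in livers and 4.91, 9.69, 11.2, 5.45, 22.0 and 6.25 CPM in tumors. The tissues overlapped, as the TCi-HCC981 liver exceeded 5 of the 6 tumors. The log2 fold change was 0.58 (SE 0.50, adjusted p = 0.509). With the mouse as a replicate block it was 0.70 (SE 0.19) and passed, with an adjusted p of 0.0432, in a fit in which 8.64% of genes passed as higher in tumors. That call was lost when the pair of the TCi-HCC981 mouse was left out (adjusted p = 0.0801) and when the pair of the T-HCC662 mouse, matched by elimination, was left out (adjusted p = 0.0835).

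Lck, at chr4:129548344-129573641 (minus strand), was the sparsest blood-cell member, with 12 to 123 reads per library. It measured 0.989, 1.61, 1.14, 3.27, 4.41 and 0.630 CPM in livers and 1.08, 3.46, 6.64, 1.47, 5.70 and 0.682 CPM in tumors. T-HCC941 and TCi-HCC981 were the highest, T-HCA992 was below its own liver, and T-HCC662 and TCi-HCA984 were near theirs. The log2 fold change was 0.64 (SE 0.62, adjusted p = 0.555).

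Without both libraries of the TCi-HCC981 mouse, Src and Frk still passed, at log2 fold changes of 3.34 (SE 0.57, adjusted p = 0.00687) and 1.77 (SE 0.28, adjusted p = 0.00526). The other 5 members did not pass, with Fgr at 0.79 (adjusted p = 0.179). Both Src and Frk passed in all 12 fits that left out 1 library, with log2 fold changes of 2.71 to 3.24 and 1.48 to 1.78.

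Within the p21Tert group, Src and Frk again were the 2 members that passed. On the log2 scale Src rose by 3.40 (SE 0.64, adjusted p = 0.0133) and Frk by 1.77 (SE 0.32, adjusted p = 0.0113), in 4 tumors against 4 livers, in a contrast in which 4.20% of 15182 genes passed as higher in tumors. Both calls rested in part on single livers: without the liver titled p_961, Src had an adjusted p of 0.0559 and Frk of 0.0508, and without the T-HCC663 liver Src had an adjusted p of 0.0525, while the log2 fold changes stayed at 3.21, 1.67 and 3.32. With 2 p21TertCi tumors against 2 livers, neither gene passed. Their log2 fold changes were 1.94 for Src (SE 0.85, unadjusted p = 0.0434, adjusted p = 0.455) and 1.32 for Frk (SE 0.45, unadjusted p = 0.0126, adjusted p = 0.373). No gene of 15182 passed there (0.00%), whereas 1618 had an unadjusted p under 0.05 and DESeq2 called 366.

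The difference between genotypes was tested itself as an interaction. For Src it was −1.45 (SE 1.03, adjusted p = 1.0) and for Frk −0.45 (SE 0.54, adjusted p = 1.0), where a negative value means a smaller tumor-minus-liver difference in p21TertCi. By edgeR no gene passed this test (0.00%), while 556 genes had an unadjusted p under 0.05 and DESeq2 called 14. Genotypes were therefore not shown to differ for any member. The standard errors are close to or above the size of the estimates. They leave room for no difference, for one of the opposite sign and for differences well beyond the estimates.

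Per length of merged exons (RPKM, which is CPM divided by kilobases), the family is ordered differently in liver and tumor. In livers Lyn was the highest member in all 6 libraries, with a median of 40.0% of the family's summed RPKM, followed by Yes1 (29.2%), Fyn (11.8%), Fgr (8.4%), Frk (5.3%), Lck (3.0%) and Src (2.5%). In tumors the medians were 30.7% for Lyn, 16.5% for Yes1, 15.0% for Src, 11.9% for Frk, 11.2% for Fyn, 8.8% for Fgr and 3.6% for Lck. Src was sixth or last of the 7 members in every liver. It ranked second, behind Lyn, in T-HCC663, T-HCC941 and T-HCA992, with 18.6%, 21.7% and 23.2% of the family. Neighbors in both orders had overlapping RPKM ranges. The RPKM of the 7 members summed to 11.8 to 25.9 in livers and 12.2 to 35.3 in tumors, and T-HCC662 was the only one below its own liver.

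**Figure D3:**
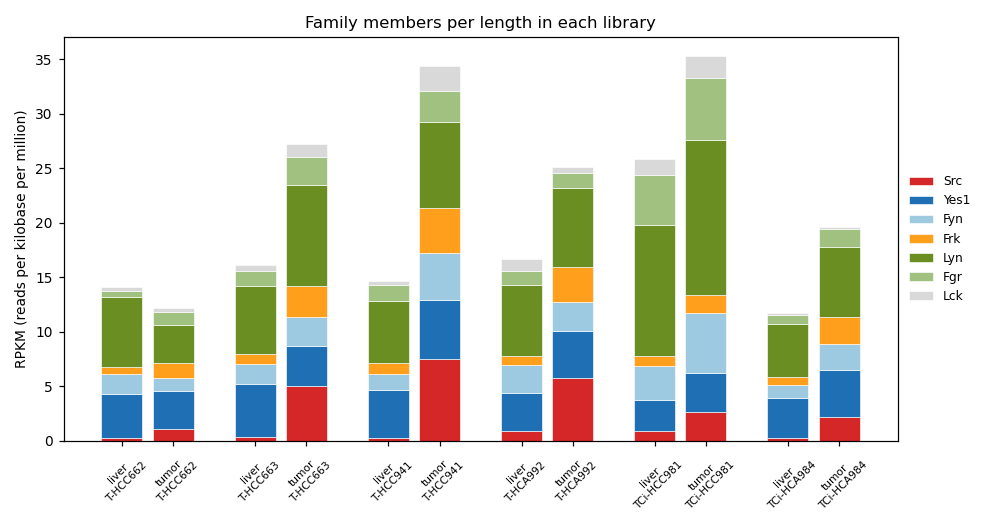
Stacked RPKM of the 7 Src family kinases in each of the 12 libraries, liver and tumor of each mouse side by side, on a linear axis from 0. The Src share was 1.7 to 5.5% of the family in livers and 7.6 to 23.2% in tumors, and Lyn formed the largest segment in every library except T-HCC662, where Yes1 did (28.3% against 27.9%).

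Csk, the kinase that keeps the family inactive, was set beside the widely expressed members. Csk measured 102, 110, 108, 93.3, 95.9 and 103 CPM in livers and 122, 107, 54.6, 74.3, 74.9 and 74.3 CPM in tumors. It was lower than the own liver in 5 of 6 tumors, but the log2 fold change of −0.28 (SE 0.18) did not pass the test (adjusted p = 0.348). The RPKM of Src was 0.844 to 3.71% of that of Csk in livers. In tumors it was 3.32, 17.7, 51.2, 29.3, 13.4 and 11.2% in the same order of mice. The value in T-HCC662 lay within the liver range, and the other 5 lay above it. For Frk the ratio was 2.37 to 3.41% in livers and 4.45 to 28.1% in tumors, with no overlap.

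**Figure D4:**
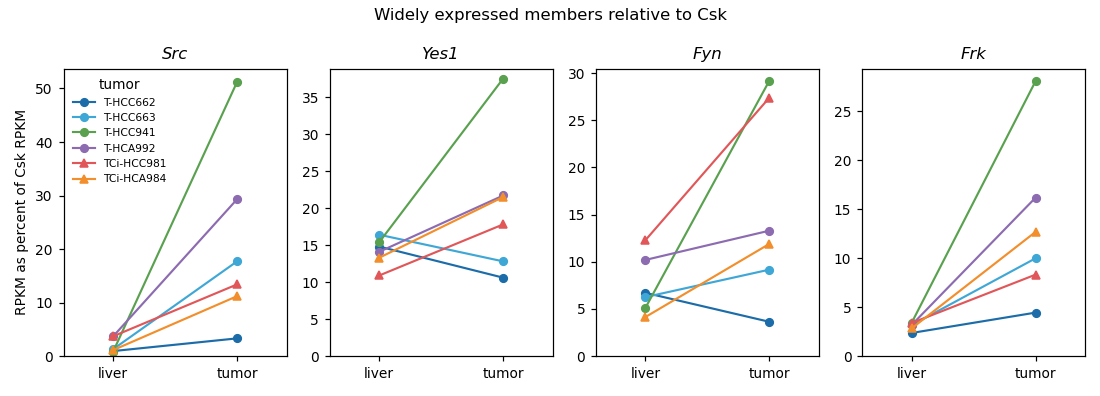
RPKM of Src, Yes1, Fyn and Frk as a percent of the RPKM of Csk in liver and tumor, with 1 line per mouse and linear axes from 0 that differ between panels. In T-HCC941, with the lowest Csk, Src reached 51.2% and Yes1 37.5% of Csk, whereas in T-HCC662 Yes1 stood at 10.6%, below its liver at 14.8%.

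Srms and Ptk6, relatives with low RNA here, did not pass the test, with log2 fold changes of −1.05 (SE 0.49, adjusted p = 0.195) and −1.22 (SE 0.65, adjusted p = 0.255). Blk, known from B cells, ranged from 0 to 3.33 CPM in livers and 0 to 1.23 CPM in tumors and did not pass the filter over all tumors.

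Genes that act around the family mostly did not pass. Among 15 regulators, 2 rose and 0 fell, with a median log2 fold change of 0.21 over the list, against 0.01 over all genes tested. Over all genes tested, 6.77% passed as higher in tumors, the share to set beside the counts of this and the following lists. They were Unc119, a carrier of lipid-modified proteins including Src family kinases (log2 fold change 1.83, SE 0.30, adjusted p = 0.00274), and Ptpre, a receptor-type tyrosine phosphatase (2.68, SE 0.67, adjusted p = 0.0229). Unc119 measured 5.69 to 12.9 CPM in livers and 14.9 to 48.6 CPM in tumors, every tumor above every liver, as for 2.93% of genes tested. Ptpre ran from 1.14 to 5.42 CPM in livers and from 2.03 to 40.2 CPM in tumors, and was higher in 4 of 6 mice.

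Of the 10 receptors upstream, 1 rose and 0 fell (median 0.20): Itgav, the integrin alpha V subunit, at 20.3 to 25.7 CPM in livers and 24.2 to 42.6 CPM in tumors (log2 fold change 0.60, SE 0.17, adjusted p = 0.0379). Of the 24 substrates and adaptors, 3 rose and 0 fell (median 0.18), where 6.77% of all genes tested passed as higher in tumors. Anxa2, a membrane-binding Src substrate, rose by 2.81 on the log2 scale (SE 0.44, adjusted p = 0.00235), Nedd9, a scaffold of focal adhesions, by 1.95 (SE 0.36, adjusted p = 0.00554) and Cttn, the actin-binding cortactin, by 0.51 (SE 0.13, adjusted p = 0.0244). In each of these 3 genes every tumor lay above every liver, which held for 2.93% of all genes tested. Anxa2 went from 6.82 to 33.9 CPM in livers to 75.4 to 256 CPM in tumors, Nedd9 from 1.91 to 8.07 CPM to 8.92 to 26.6 CPM, and Cttn from 49.3 to 70.7 CPM to 73.8 to 98.9 CPM. The other 21 genes of that list did not pass.

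Of 13 partners of the blood-cell members, 1 rose and 0 fell (median 0.70, with 12 of 13 positive). Over all genes tested, 6.77% passed as higher in tumors and 50.9% were positive. Within p21Tert 12 of the 13 partners were positive (median 1.06), beside 52.5% of all genes tested there. Within p21TertCi 7 of 13 were positive (median 0.01), near the 48.1% of all genes tested. In the interaction between genotypes 0 of the 13 passed. The partner that rose over all tumors was Blnk, an adaptor of B cell receptor signaling, at 0.485 to 4.71 CPM in livers and 7.16 to 20.8 CPM in tumors (log2 fold change 2.51, SE 0.49, adjusted p = 0.00683). Of the 6 B cell markers 4 were tested, with 0 positive and 0 past the threshold, and their sum was 3.98 to 27.8 CPM in tumors and 1.89 to 57.5 CPM in livers.

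The levels of the blood-cell members stood beside those of the marker lists. Lyn and Fgr were highest in the liver and tumor of the TCi-HCC981 mouse, the libraries with the 2 highest macrophage sums (1310 and 832 CPM), and Lyn was next highest in T-HCC663, where the macrophage markers summed to 580 CPM. Fgr was next highest in T-HCC941 (11.2 CPM, macrophage sum 233 CPM), above T-HCC663 (9.69 CPM). Within the TCi-HCC981 mouse Lyn and Fgr were higher in the tumor, although the macrophage sum was lower there than in the liver. Lck was highest in T-HCC941, where the 9 T cell markers in the files also had their highest sum, 45.4 CPM, against 4.17 to 26.3 CPM in the other 11 libraries. In T-HCA992, where Lck was 1.47 CPM against 3.27 CPM in its liver, the T cell sum was 12.1 against 19.6 CPM. Over all tumors the macrophage sum was 122 to 832 CPM, against 137 to 1310 CPM in livers, with 0 of 10 markers passing and 1, Marco, at 0 in some library. The T cell sum was 7.10 to 45.4 CPM in tumors and 4.17 to 19.6 CPM in livers, with 0 of 9 passing and 3, Cd3e, Cd5 and Cd8b1, at 0 in some library. The part of these cells in the values of Lyn, Fgr and Lck was not tested.

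**Figure D5:**
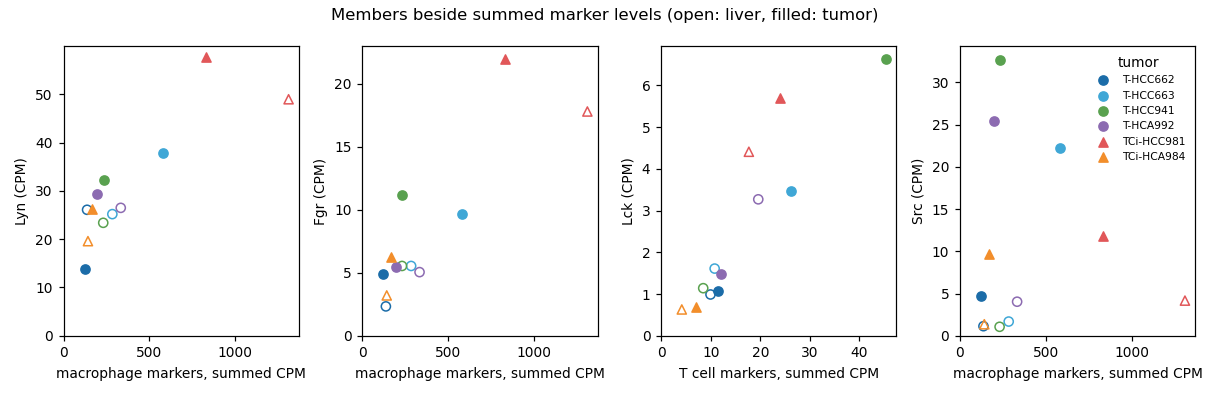
CPM of Lyn, Fgr and Src against the summed CPM of 10 macrophage markers, and of Lck against the summed CPM of 9 T cell markers, with 1 point per library, open for liver and filled for tumor. Lyn and Fgr are highest at the macrophage sums of 832 and 1310 CPM and Lck at the T cell sum of 45.4 CPM, whereas Src is highest in tumors with macrophage sums of 197 to 580 CPM.

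The marker sums beside Src and Frk differed from tumor to tumor. In T-HCA992 the macrophage sum was 197 CPM against 333 CPM, the T cell sum 12.1 against 19.6 CPM, the B cell sum 5.84 against 57.5 CPM, the endothelial sum 196 against 174 CPM and the stellate and fibroblast sum 278 against 242 CPM, while Src was 6.32-fold and Frk 4.05-fold its liver. Within the stellate and fibroblast list of T-HCA992, Col1a1 was 66.8 against 10.3 CPM, Col1a2 63.1 against 16.1 CPM and Acta2 15.5 against 2.74 CPM. The other markers of that list were lower, Dcn at 71.8 against 142 CPM. Of the macrophage markers, Cd68 (16.3 against 10.7 CPM) and Spi1 (7.92 against 7.78 CPM) were higher and the others lower. In T-HCC663 the bile duct sum was 35.5 against 51.9 CPM, the endothelial sum 99.3 against 115 CPM, the stellate and fibroblast sum 62.8 against 174 CPM, the macrophage sum 580 against 284 CPM and the T cell sum 26.3 against 10.8 CPM, while Src was 13.2-fold and Frk 3.07-fold its liver. In T-HCC941 the neutrophil sum was 18.9 against 31.7 CPM, the T cell sum 45.4 against 8.49 CPM and the endothelial sum 139 against 54.8 CPM. Its stellate and fibroblast sum was 124 against 55.0 CPM, its macrophage sum 233 against 231 CPM and its B cell sum 6.75 against 5.99 CPM. Endothelial sums were 53.9 against 131 CPM in T-HCC662, 264 against 142 CPM in TCi-HCC981 and 176 against 109 CPM in TCi-HCA984. Stellate and fibroblast sums there were 25.7 against 124, 201 against 223 and 180 against 93.0 CPM. The bile duct sum was above the own liver in T-HCA992 (1060 CPM), T-HCC941 (413 CPM) and TCi-HCA984 (285 CPM), over ranges of 17.8 to 1060 CPM in tumors and 50.9 to 134 CPM in livers, with 0 of 5 markers passing and 2, Krt19 and Krt7, at 0 in some library. In these 3 tumors Spp1, which encodes osteopontin, made up 1040, 383 and 261 CPM of it, Sox9 measured 21.9, 29.5 and 21.6 CPM against 7.62, 7.05 and 10.1 CPM in the livers, and Krt19, Krt7 and Epcam were between 0.216 and 2.58 CPM in these tumors. The part of the marked cell types in the Src and Frk levels was not tested.

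Of the remaining lists, Pecam1 was the 1 of 7 endothelial markers to pass, as higher (log2 fold change 1.59, adjusted p = 0.0179), with 4 of 7 positive. Tat, a hepatocyte enzyme of tyrosine breakdown, was the 1 of 8 hepatocyte markers to pass, as lower (−1.75, adjusted p = 0.0164), with 3 of 8 positive. The hepatocyte sum was below the own liver in T-HCC662 and T-HCC663 and above it in the other 4 tumors. Stellate and fibroblast, bile duct and neutrophil markers had 0 that passed.

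Without both libraries of the TCi-HCC981 mouse, Itgav (log2 fold change 0.55, adjusted p = 0.112) and Cttn (0.45, adjusted p = 0.0745) no longer passed, whereas Unc119, Ptpre, Anxa2, Nedd9, Blnk, Pecam1 and Tat still did, with adjusted p of 0.00365 for Anxa2 to 0.0476 for Pecam1. Fcgr3, Cd68 and Col1a1 of the lists passed as higher in tumors in that fit and not in the fit of all 12 libraries, and Csk, Srms and Ptk6 did not pass.

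The genes whose log2 CPM ran most like each member over the 12 libraries were named by Pearson r, as a description over libraries that share tissue and mouse. For Src these were Cx3cl1 (0.980), Micall2 (0.978) and Arpc1b (0.976). For Frk they were Rell1 (0.964), Cacna1c (0.957) and Rhoc (0.955). Yes1 had lower values, with Slc35a2 at 0.865, Eef2 at 0.849 and Ing5 at 0.841. Those of Fyn were Unc13d (0.949), Aim2 (0.944) and Gimap4 (0.935), those of Lyn Mrc1 (0.975), Il1b (0.951) and Dse (0.949), those of Fgr Pik3cd (0.972), Fyb (0.970) and Cd53 (0.968), and those of Lck Ptpn22 (0.955), Ikzf1 (0.953) and Spn (0.948).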

How the data were processed

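Tumors and livers of 6 mice were profiled by poly(A) RNA-seq. The authors removed low-quality reads, aligned the rest with Subread-align to mm10 with the mCherry transgene added, and deposited raw counts per gene made with featureCounts 1.6.4. The annotation release, strandedness and handling of multi-mapped reads are not given in the sources used here, and mCherry was not analysed here. Positions and exon lengths come from GENCODE for the same build, with 23376 of 24421 symbols matched, and promoters from RefSeq. By that annotation Yes1 shares 635 and Lyn 248 exon bases with an opposite-strand gene, and Lck 25 with Mir8119. No member had another gene with at least 150 aligned bases at 95% identity (minimap2 2.31).

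Counts were tested with edgeR 4.0.16 (R 4.3.3, TMM, filterByExpr, quasi-likelihood F-test, Benjamini-Hochberg over all genes tested, threshold 0.05). All 12 libraries entered 1 fit by tissue and 1 by the 4 groups of genotype and tissue. The sequencing run of each sample is not given, so the authors' run term was not fitted. CPM are TMM-scaled, and RPKM divide them by merged exon length. Own-liver differences use log2(CPM + 1), and ratios divide CPM. They compare 1 library with 1 and have no test. Alternatives were DESeq2 1.42.0, RLE size factors, no filter, the genotype's own libraries, each library left out, and the mouse as a block. Leaving out both libraries of the TCi-HCC981 mouse was chosen after seeing the data. Same-numbered libraries come from the same mouse. Deviations from the group means of a tumor and its own liver had r of 0.169, 0.04, 0.006, 0.427, 0.542 and 0.542 (T-HCC662, T-HCC663 and T-HCC941, then T-HCA992, and last TCi-HCC981 and TCi-HCA984), with both values of the 2-mouse genotype equal by construction. Among the p21Tert livers, the own liver had the highest r for T-HCC662 and T-HCA992 only. T-HCC663 had a higher r with the livers of the T-HCC941 (0.166) and T-HCC662 (0.054) mice. T-HCC941 had a higher r with the liver of the T-HCC663 mouse (0.07). For T-HCC663 and T-HCC941 the pairing thus rests on the labels. The edgeR test was also tried on simulated data.

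Members and lists were chosen with earlier results of these data known. Named genes are the 7 members, Csk, Blk, Srms and Ptk6, the up to 4 genes of smallest p per list and direction past the threshold, and the 3 genes of highest r with each member. The genes Pecam1, Tat, Fcgr3, Cd68, Spi1, Col1a1, Col1a2, Acta2, Dcn, Sox9, Spp1, Krt19, Krt7, Epcam, Marco, Cd3e, Cd5 and Cd8b1 lie outside this rule and were named after their values were seen. One further gene that the rule covers is not reported here.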

Additional observations from a re-analysis of the deposited data

Results flagged for a closer look

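In 28 groups of values of the 7 members checked with Dixon's test for a sample far from the others, 4 stood out. Chance gives about 1 in 20 for a single group. The groups share libraries, and some members run alike, such as Lyn and Fgr (Pearson r 0.802). The 4 are therefore not independent, and the rate cannot say whether 4 are more than chance gives. Lyn was 49.0 CPM in the TCi-HCC981 liver and Fgr 17.8 CPM in the same liver, both far above the other 5 livers. Fgr was 22.0 CPM in TCi-HCC981, far above the other 5 tumors. Fgr was 2.33 CPM in the liver titled p_961, far below the other 3 p21Tert livers.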

How the results depend on the processing

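The 2 members called over all tumors, Src and Frk, kept their calls under DESeq2, RLE size factors, no filter, the replicate block (adjusted p = 0.00686 and 0.00472) and every library left out. The replicate block changed 1 call among the members, that of Fgr (0.70, adjusted p = 0.0432). Within p21Tert, leaving out 1 library gave 0 to 2 members called. Over all genes DESeq2 called 2677 in all tumors (1476 with edgeR), 2088 in p21Tert (986), 366 in p21TertCi (0) and 14 for the interaction (0). RLE size factors called 1 and no filter 2 genes in p21TertCi. Leaving out 1 library gave 863 to 1988, 240 to 1192, 0 to 7 and 0 genes in these comparisons. The low ends of the first 2 ranges came without the liver titled p_961.

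Yes1 in p21Tert (−0.01 as reported) was 0.01 under DESeq2, RLE size factors and no filter and 0.02 with its own genotype's libraries. Log2 fold changes that changed sign without 1 library are given as ranges. Over all tumors Yes1 spanned −0.01 to 0.15 and Lyn −0.03 to 0.44. In p21Tert Yes1 spanned −0.15 to 0.07 and Lyn −0.01 to 0.37. In p21TertCi Lyn spanned −0.39 to 1.06, Fgr −0.74 to 2.10 and Lck −1.87 to 2.29. For the interaction Fyn spanned −0.31 to 1.29, Lyn −0.53 to 0.92, Fgr −1.48 to 1.37 and Lck −2.69 to 1.47. None of these passed. The cause was not tested. With 2 p21TertCi mice, leaving out 1 library leaves an arm with 1 sample, assumed to vary like the others. Of 42 own-liver differences, 3 moved by more than the SD of the livers with a pseudocount of 0.1, 0 with RLE size factors and 14 against the mean of the 6 livers. Liver counts of Src and Lck, down to 14 and 13 reads, limit their precision.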
